A study of Mus musculus with 5 samples.

Results

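WT1 occupancy was examined at 7 genes of nephron progenitors and of nephron induction: Wnt4, Bmp7, Pax2, Sall1, Six2, Lhx1 and Spry1. Each gene was represented by a fixed mm9 window of 100 to 200 kb, 980 kb in all, and its members are the WT1 peaks that overlap the window. The windows are chr4:136700000-136900000 for Wnt4, chr2:172640000-172820000 for Bmp7, chr19:44780000-44960000 for Pax2, chr8:91500000-91620000 for Sall1, chr17:86040000-86140000 for Six2, chr11:84290000-84390000 for Lhx1 and chr3:37490000-37590000 for Spry1. They held 4 of 6440 peaks in M15 replicate 1, 35 of 60925 in M15 replicate 2, 168 of 310999 in KTS-minus replicate 1 and 122 of 244428 in KTS-minus replicate 2. Merged where they shared at least 1 bp, these peaks formed 234 sites, of 455287 merged regions over all chromosomes. An mm9 gene annotation was not used here, so the windows are taken as named, and a site is placed in a window, not in a promoter, exon or intron.

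The samples are cultures of M15, a mouse mesonephric epithelial cell line transformed with the large T antigen of polyoma virus. Unedited M15 cells (2 libraries) were compared with an edited M15 line that the labels call KTS minus (2 libraries), both with a WT1 antibody in CUT&RUN, in which a nuclease tethered by the antibody releases the DNA around the bound protein. KTS names the 3 amino acids that alternative splicing adds to or leaves out of the zinc-finger part of WT1. The labels do not say which isoform the edited line still makes, whether it is 1 clone, or whether the replicates are independent cultures, so replicate spread may be purely technical. The IgG library of the series was not analysed here, and the cell type could not be checked against markers, since peak lists hold no expression values. Read depth is unknown, signal has no common scale between libraries, and a list holds only stretches above the authors' threshold, so a missing peak is not a measured absence of WT1. A peak is therefore described by its place in its own list: the percent of that list's peaks whose max signal, the highest coverage inside the peak, was at least as high. With 2 libraries against 2, the smallest p of an exact two-sided permutation test is 0.333, and differences between the lines were left untested.

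In the developing kidney, nephrons arise from a cap of mesenchymal progenitor cells around the tips of the ureteric bud. Six2 and Sall1, both transcription factors, keep these cells in the progenitor state, and Pax2, a paired-box factor, is needed in both the mesenchyme and the ureteric epithelium. Signals from the bud induce Wnt4, a secreted ligand that drives the change from mesenchyme to epithelium, and Lhx1, a LIM homeobox factor, marks the vesicles that form. Bmp7 is a secreted ligand that supports progenitor survival and proliferation, and Spry1 is an intracellular inhibitor of receptor tyrosine kinase signalling that limits the response to GDNF. WT1 itself is required for this program, and Wnt4, Bmp7, Pax2 and Sall1 have been described as WT1 targets in kidney tissue.

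Promoter sequences came from RefSeq on build GRCm38.p6, a later build than the mm9 of the peaks, as windows of 300 bases from 250 before to 50 after a gene's start. They were found for 6 of the 7 genes, 10 windows in all, since Pax2 and Sall1 have 3 starts each. Because the builds differ, no peak was placed on them. The Wnt4 promoter is printed because the Wnt4 window holds the M15 sites described below. Of its bases, 84.3% were G or C, the highest value of the 10 windows, against a median of 52.7% over 32851 promoter windows of all genes. Its sequence is given 5′ to 3′ along the gene's strand.
Wnt4, GRCm38.p6 chr4:137277385-137277684, plus strand: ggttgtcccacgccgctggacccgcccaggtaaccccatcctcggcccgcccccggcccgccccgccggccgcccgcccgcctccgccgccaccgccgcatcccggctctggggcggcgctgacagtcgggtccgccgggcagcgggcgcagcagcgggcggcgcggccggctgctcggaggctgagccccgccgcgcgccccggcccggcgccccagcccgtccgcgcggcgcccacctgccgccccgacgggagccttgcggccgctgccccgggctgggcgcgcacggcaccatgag

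The first question was where M15 cells show WT1 in both replicates. Only the Wnt4 window qualified: it held 4 such sites, and the 6 other windows held none. Over all merged regions, 1.25% had a peak in both M15 libraries, and in the 7 windows 4 of 234 sites did. The 4 sites are numbered here along the chromosome, from site 1 at chr4:136715179-136718007 through site 2 at chr4:136767755-136770402 and site 3 at chr4:136836897-136840432 to site 4 at chr4:136841971-136844371. Gaps of 49747 and 66494 bp separated the first 3 sites, while sites 3 and 4 lay 1538 bp apart. Among all 200 kb tiles of the chromosomes, 22.4% held at least 1 site of both M15 libraries and 2.65% held at least 4. On chromosome 4 these shares were 25.1% and 2.96%. For the other windows, the share of tiles of the same length with at least 1 such site was 14.2% at 100 kb, 16% at 120 kb and 20.9% at 180 kb. In the gene order of GRCm38, the protein-coding neighbours of Wnt4 are Zbtb40 and Cdc42, and whether a site belongs to Wnt4 or to a neighbour was not tested.

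**Figure D1:**
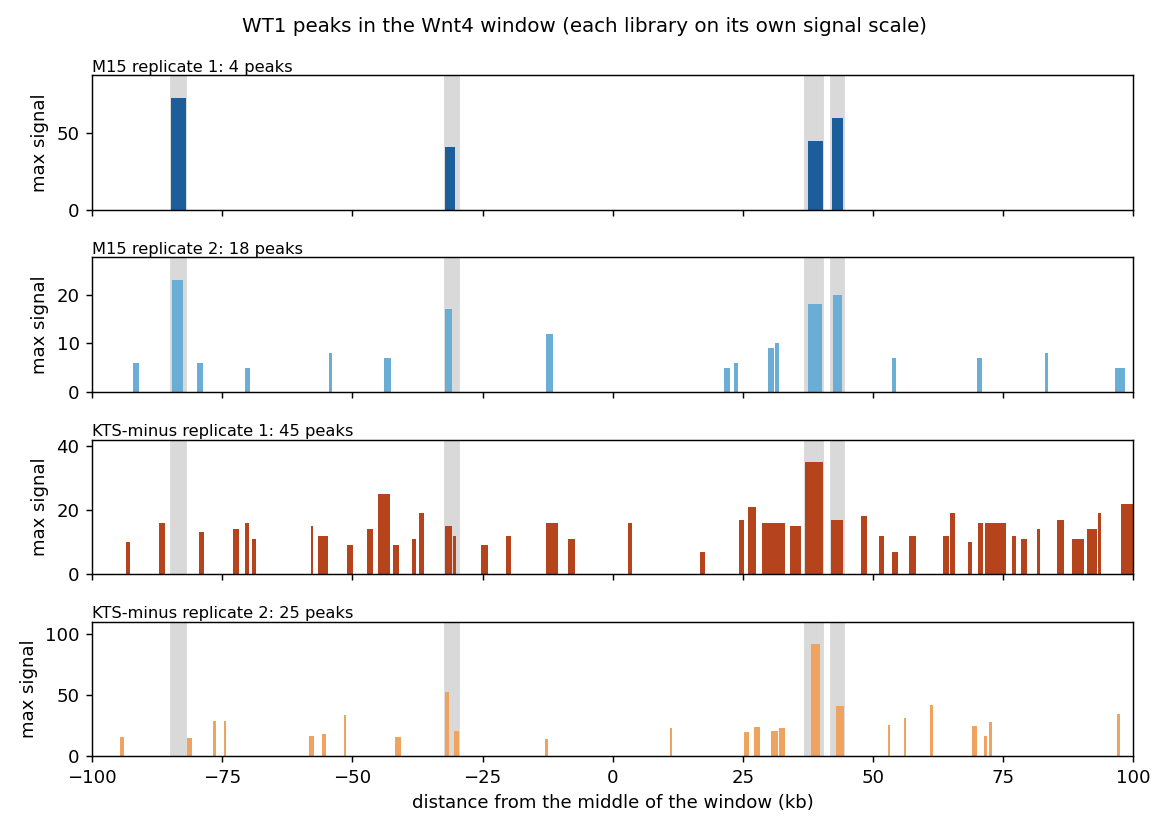
WT1 peaks across the Wnt4 window in the 4 libraries, as bars from peak start to peak end (x axis, kb from the middle of the window) with max signal as height (y axis, each library's own coverage units). Grey bands mark the 4 sites found in both M15 libraries. The 4 peaks of M15 replicate 1 are the 4 highest of M15 replicate 2, and the leftmost band is empty in both KTS-minus libraries.

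At site 1 the max signal was 73 in M15 replicate 1 and 23 in M15 replicate 2, the highest value of the window in each list. Neither KTS-minus list had a peak there. The nearest KTS-minus peaks ended 1275 bp before it in replicate 1 (chr4:136712901-136713903, max signal 16) and began 231 bp after it in replicate 2 (chr4:136718239-136719194, max signal 15). In KTS-minus replicates 1 and 2, 26.8% and 84.6% of the peaks were at least as high as those neighbours. The first lay above its list's median of 13 and the second below its list's median of 21. The stretches of highest signal of the M15 replicates were 116 bp apart.

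At site 2 the max signal was 41 and 17 in M15 replicates 1 and 2 and 15 and 53 in KTS-minus replicates 1 and 2. The KTS-minus libraries differed in how the site stood in their lists: 34.1% of replicate 1 peaks but 0.745% of replicate 2 peaks were at least as high. In all 4 libraries the stretches of highest signal fell within 50 bp of each other. Each KTS-minus list had a second, lower peak further along the merged site, with a max signal of 12 in replicate 1 and 21 in replicate 2.

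Site 3 was the highest peak of the window in both KTS-minus libraries, with a max signal of 35 in replicate 1 and 92 in replicate 2. Only 0.378% and 0.0974% of the peaks in those lists were at least as high, and by total signal 1.24% and 0.239%. In M15 replicates 1 and 2 the max signal was 45 and 18, and 31.8% and 4.07% of the lists were at least as high. The stretches of highest signal of M15 replicate 2 and both KTS-minus libraries were 12.5 to 109.5 bp apart, and that of M15 replicate 1 lay 411.5 to 521 bp from them.

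At site 4 the max signal was 60 and 20 in M15 replicates 1 and 2 and 17 and 41 in KTS-minus replicates 1 and 2. The share of the list at least as high was 16.3%, 3.06%, 20.8% and 2.57% in the same order. The stretches of highest signal of the 4 libraries spread over 226 bp. Over all 5331 regions with a peak in every library the median spread was 524 bp, and 49.0% of the regions had a spread of at most 500 bp. Sites 2 and 4 were inside that limit and site 3, at 521 bp, was just outside it.

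**Figure D2:**
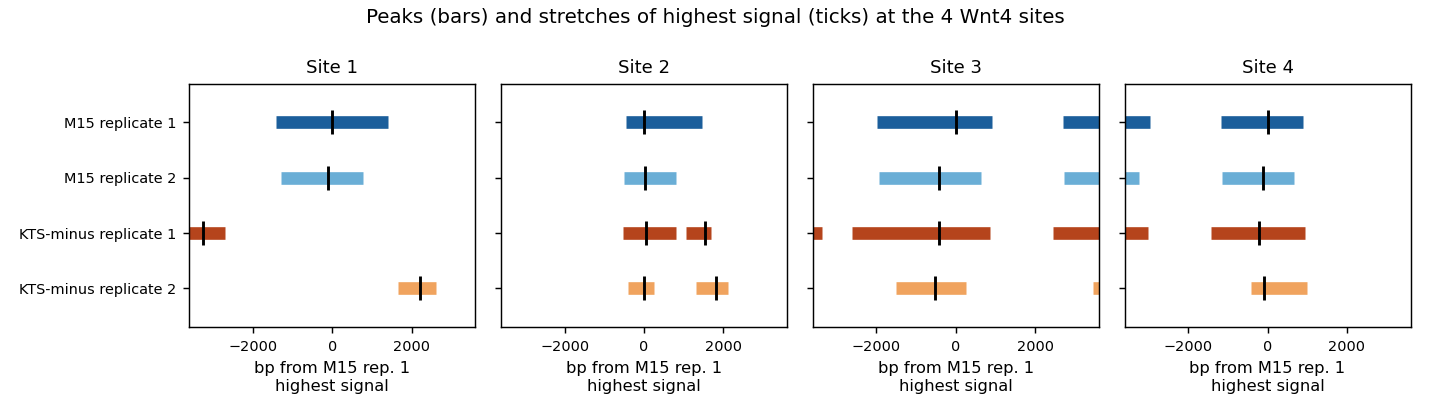
Peaks (bars) and the middle of each peak's stretch of highest signal (black ticks) at the 4 Wnt4 sites, one row per library; the x axis is the distance in bp from the stretch of M15 replicate 1. At site 1 no KTS-minus peak meets the M15 peaks, and at site 2 the leftmost ticks of all libraries lie within 50 bp. Bars at the edges of the panels for sites 3 and 4 belong to the neighbouring peaks.

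The second question was whether the M15 sites were also found in the edited line. Sites 2, 3 and 4 had a peak in both KTS-minus libraries, each meeting the M15 peak itself, and site 1 had none. This is 3 of 4 sites, 75% (95% Wilson interval 30.1 to 95.4, counting error only), against 93.7% of the 5688 regions of both M15 libraries over all chromosomes. A lack of any KTS-minus peak, as at site 1, was seen at 1.23% of those regions and at 3 of 378 on chromosome 4. The Wilson interval treats the 4 sites as independent, though all lie in the Wnt4 window and sites 3 and 4 are 1538 bp apart. It does not measure variation between cultures. When every list was reduced to its 6440 highest peaks, the length of the shortest, site 3 alone kept a peak in both KTS-minus libraries, and sites 2 and 4 kept one in replicate 2 only. KTS-minus peaks covered 31.7% and 10.1% of the Wnt4 window in replicates 1 and 2, against 17.0% and 7.77% of chromosome 4. When overlap was asked of the stretches of highest signal instead of whole peaks, no site of both M15 libraries was left in any window. At the 4 sites these stretches were short, the longest in M15 replicate 1 being chr4:136843381-136843391. Their middles lay 35 to 411.5 bp apart between the M15 replicates. This setting asks for nearly the same position, so it cannot show whether the replicates share a site.

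Away from these 4 sites, the peaks of the Wnt4 window had a median max signal near that of the whole list, in M15 replicate 2 and in both KTS-minus libraries. M15 replicate 2 listed 14 further peaks there, with a max signal of 5 to 12 (median 7, whole list 7), below the 17 to 23 of its peaks at the 4 sites. The 4 peaks of replicate 1 were 1923 to 2904 bp wide, and those of replicate 2 at the same sites 1326 to 2563 bp, against medians of 1673 and 1009 bp over the whole lists. KTS-minus replicate 1 listed 41 further peaks with a max signal of 7 to 25 (median 14, whole list 13) and replicate 2 listed 21 with 14 to 42 (median 23, whole list 21). The highest of replicate 1, at 25, stood above its peaks at sites 2 and 4. One of these, at chr4:136860960-136861487 in KTS-minus replicate 2, reached 42, above site 4 in the same list, and had no peak in another library. Sites of both KTS-minus libraries without an M15 peak numbered 5 in this window.

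The peak density of the Wnt4 window, in peaks per 100 kb over that of the whole list, was 8.20 in M15 replicate 1 and 3.90 in replicate 2, and 1.91 and 1.35 in KTS-minus replicates 1 and 2. The means were 6.05 ± 3.04 in M15 and 1.63 ± 0.40 in KTS-minus (SD, n = 2 each). With the deposited lists both M15 values lay above both KTS-minus values, but this order did not hold at equal list length. With 6440 peaks in every list the window held 4 peaks, a ratio of 8.20, in each M15 library and in KTS-minus replicate 2. It held 1 peak, a ratio of 2.05, in KTS-minus replicate 1. The 4 peaks of KTS-minus replicate 2 were not at the same 4 sites as in M15: none lay at site 1, and 1 was at chr4:136860960-136861487. This comparison at equal length was chosen after seeing the data. Against chromosome 4 alone the M15 ratios were 7.57 and 4.23, and the KTS-minus ratios 1.72 and 1.26. The ratio of M15 replicate 1 rests on 4 peaks.

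**Figure D3:**
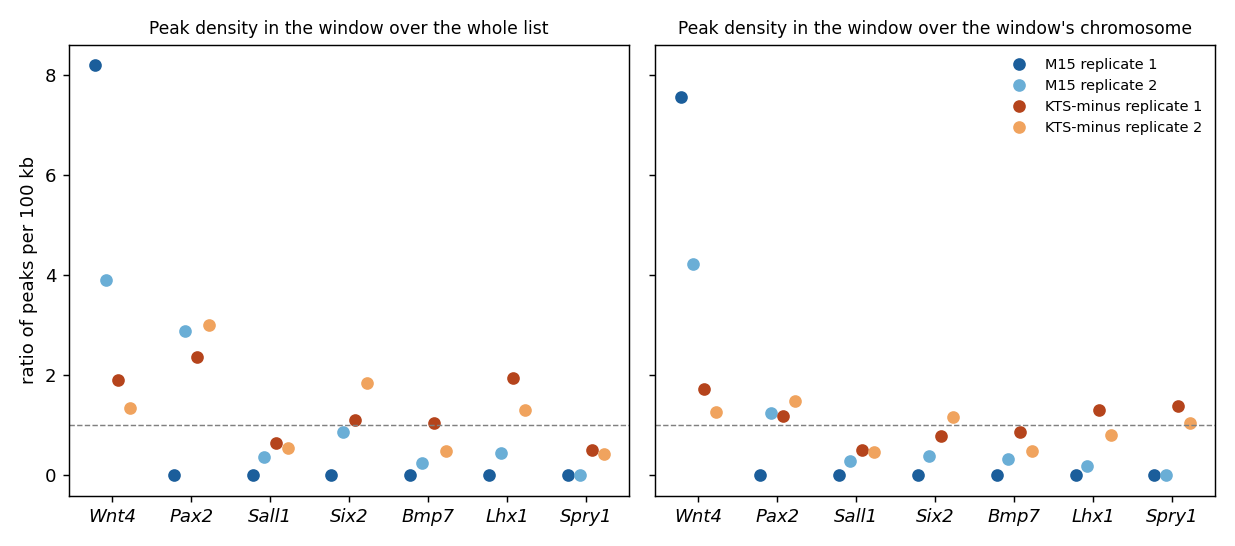
Peak density (peaks per 100 kb) in each gene's window divided by the density of the whole list (left) or of the window's own chromosome in that list (right), one point per library; the dashed line marks a ratio of 1. The Wnt4 window stands highest in both M15 libraries, at 8.20 and 3.90 on the left, and the Pax2 points on the right sit closer to 1 than on the left.

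Bmp7, the other secreted ligand of the set, had few M15 peaks in its 180 kb window. M15 replicate 1 listed no peak and M15 replicate 2 a single one, at chr2:172656468-172657212 with a max signal of 6, which 84.5% of its list reached. No KTS-minus peak met it: the nearest were 1399 bp away in replicate 1 and 15951 bp away in replicate 2. KTS-minus replicates 1 and 2 listed 22 and 8 peaks in the window, 0.86 and 0.48 times the density of chromosome 2. They shared 2 of 29 sites (6.90%), against 15.4% of the regions on chromosome 2, with max signals of 9 and 16 in replicate 1 and 23 and 8 in replicate 2. The highest peak in replicate 1, at chr2:172703793-172705238, had a max signal of 26, reached by 1.95% of that list. Replicate 2 had no peak there, and its own highest peak, at chr2:172810419-172810913, reached 34, as 7.46% of that list did. The nearest site of both M15 libraries was 266 kb beyond the end of the window. Bmp7 has Tfap2c and Spo11 as protein-coding neighbours in GRCm38.

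Pax2 had the most KTS-minus peaks of the 7 windows. Its 180 kb held 50 peaks in each KTS-minus library, 12 in M15 replicate 2 and 0 in M15 replicate 1. KTS-minus peaks covered 51.7% and 23.9% of the window in replicates 1 and 2. The whole list gave ratios of 2.36 and 3.00 for the KTS-minus density, but chromosome 19 was densely covered as a whole, and against it the ratios were 1.18 and 1.48. For M15 replicate 2 the ratio was 2.89 to the list and 1.25 to the chromosome.

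Of the 68 sites in the Pax2 window, 25 (36.8%) had a peak in both KTS-minus libraries, against 18.3% of all merged regions and 29.9% of those on chromosome 19, and in all 7 windows 49 of 234 sites (20.9%) did. M15 had no peak at 22 of the 25 sites (88%), against 73.7% of all regions of both KTS-minus libraries. The latter share was not computed for chromosome 19 alone, so the difference cannot be assigned to the window. At these 22 sites the max signal ran from 7 to 22 in KTS-minus replicate 1 and from 9 to 29 in replicate 2, and the medians were 16 and 18.5, beside medians of 13 and 21 over the whole lists. The broadest was a stretch of 7540 bp in KTS-minus replicate 1, at chr19:44934995-44942534. The strongest KTS-minus peaks of the window lay at different places: chr19:44920181-44922026 in replicate 1 (max signal 24, reached by 3.23% of the list) and chr19:44906389-44907019 in replicate 2 (41, reached by 2.57%).

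The 12 M15 replicate 2 peaks at Pax2 had a max signal of 4 to 9 (median 7, whole list 7). Of that list, 31.3% was at least as high as the highest of them. Peaks at chr19:44906471-44908567 and chr19:44951741-44952441 met a peak of both KTS-minus libraries. A further peak, at chr19:44920467-44921189, met the highest KTS-minus replicate 1 peak of the window, and a KTS-minus replicate 2 peak touched only the latter. Another 6 peaks met a peak of 1 KTS-minus library. No KTS-minus peak met the remaining 3, at chr19:44801060-44802405, chr19:44824463-44825402 and chr19:44931199-44932379. The nearest site of both M15 libraries lay 40.8 kb past the end of the window, at chr19:45000836-45014370, where the M15 replicates reached 59 and 22 and the KTS-minus replicates 23 and 46.

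**Figure D4:**
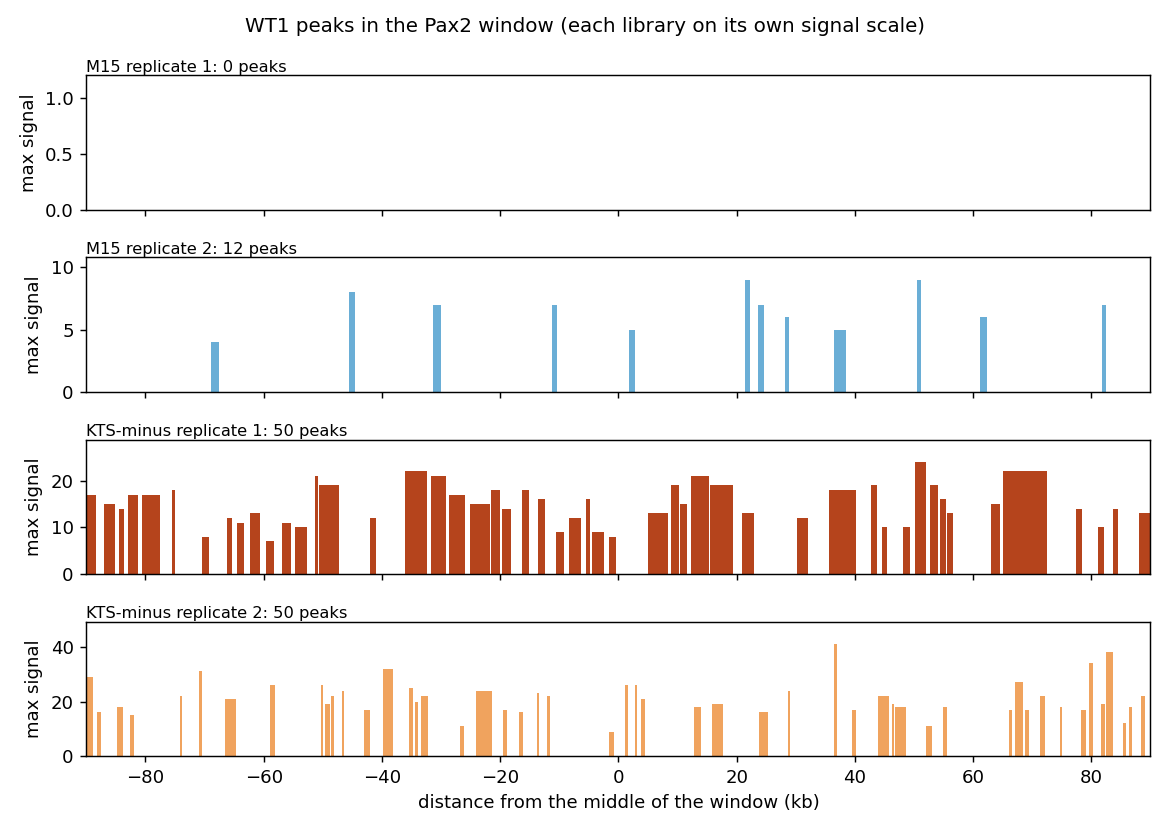
WT1 peaks across the Pax2 window in the 4 libraries, as bars from peak start to peak end (x axis, kb from the middle of the window) with max signal as height (y axis, each library's own coverage units). M15 replicate 1 has 0 peaks and M15 replicate 2 has 12, none above 9, while each KTS-minus library has 50 peaks spread along the window.

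Sall1 and Six2, the progenitor factors, had 3 M15 peaks between them, all in replicate 2. The 120 kb Sall1 window held 9 and 6 peaks in KTS-minus replicates 1 and 2, which is 0.50 and 0.46 times the density of chromosome 8, and none of its 16 sites was shared by them, against 16.6% of the regions on chromosome 8. Its only M15 peak, at chr8:91569772-91570486 in replicate 2, had a max signal of 8, and the nearest KTS-minus peaks were 4565 and 6855 bp away in replicates 1 and 2. The highest KTS-minus replicate 1 peak, at chr8:91543767-91544650, had a max signal of 18, which 16% of its list reached. The highest peak of the window, at chr8:91613147-91613707 in replicate 2, reached 36, and 5.36% of that list was at least as high.

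The 100 kb Six2 window held 13 and 17 peaks in KTS-minus replicates 1 and 2, and 4 of its 26 sites (15.4%) were shared by them, against 20% of the regions on chromosome 17. Against chromosome 17 the density ratios were 0.79 and 1.15. The highest KTS-minus peaks by max signal were not shared: chr17:86063269-86063729 in replicate 1 had a max signal of 27, reached by 1.54% of the list, and chr17:86040588-86041169 in replicate 2 had 45, reached by 1.57%. By total signal, the coverage summed over the peak, 71.1% and 16.4% of the lists were at least as high as these peaks. M15 replicate 2 listed 2 peaks. One, at chr17:86101793-86102704 with a max signal of 7, met peaks of both KTS-minus libraries, and the other, at chr17:86042004-86043070 with 6, met a peak of replicate 2 alone. The neighbouring protein-coding gene on one side in GRCm38 is Six3, a related homeobox gene that acts in the forebrain and eye.

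Lhx1, the marker of induced vesicles, had 23 and 12 peaks in KTS-minus replicates 1 and 2 in 100 kb. The 2 libraries shared 6 of its 27 sites (22.2%), against 21.3% of the regions on chromosome 11. The density ratios to chromosome 11 were 1.3 and 0.80. The highest peaks were chr11:84362138-84363049 in replicate 1 (max signal 21, reached by 7.14% of the list) and chr11:84386954-84387357 in replicate 2 (38, reached by 3.96% of the list). The latter met a replicate 1 peak with a max signal of 17. The single M15 peak, at chr11:84328884-84330069 in replicate 2 with a max signal of 7, met a KTS-minus replicate 1 peak, and KTS-minus replicate 2 peaks joined the merged site only through that one.

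Spry1, the inhibitor of receptor tyrosine kinase signalling, had the fewest peaks. M15 listed none in its 100 kb window, and KTS-minus replicates 1 and 2 listed 6 and 4, at 10 separate sites. On chromosome 3, 8.99% of the regions had a peak in both KTS-minus libraries. Chromosome 3 was sparsely covered, and against it the KTS-minus density ratios were 1.39 and 1.03, although they were 0.51 and 0.43 against the whole lists. The highest peaks were chr3:37522217-37523186 in replicate 1, with a max signal of 17, and chr3:37524393-37525110 in replicate 2, with 22, and 20.8% and 46.1% of the lists were at least as high.

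**Figure D5:**
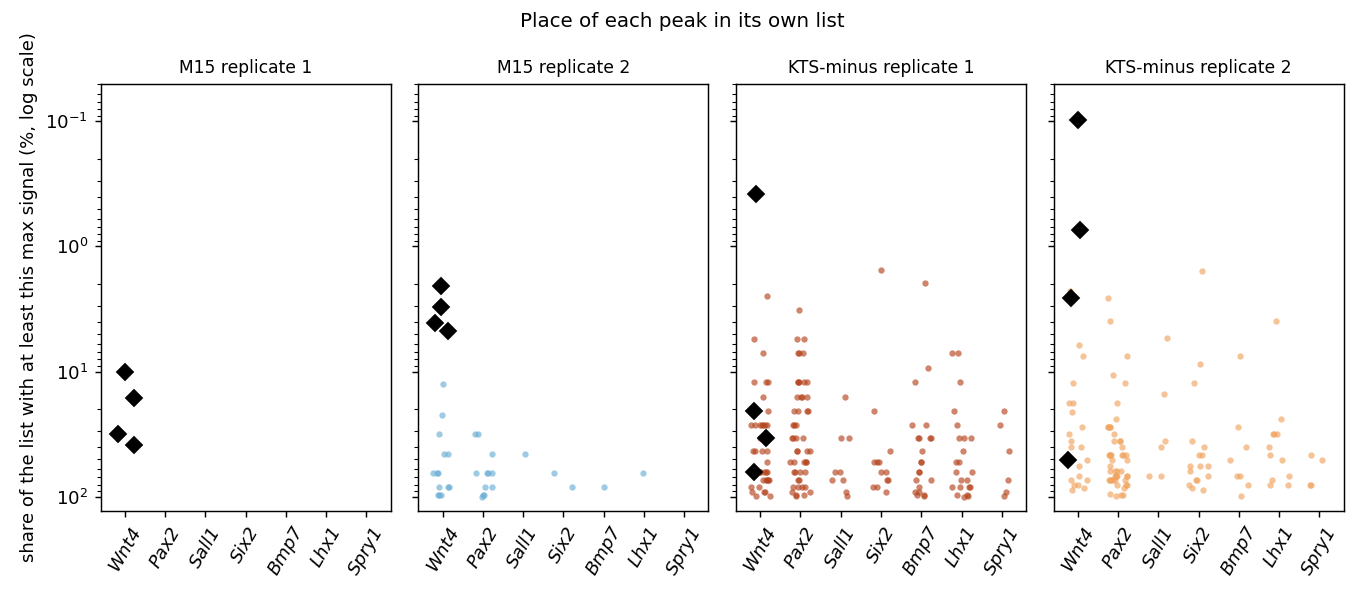
Place of every peak of the 7 windows in its own list, as the percent of the list with at least this max signal (y axis, log scale, strongest at the top), by gene and library. Black diamonds are peaks at the 4 Wnt4 sites of both M15 libraries, including the second KTS-minus peaks of site 2. In M15 replicate 2 the diamonds lie between 2.07% and 4.73%, above every other peak of that library in the 7 windows, and the highest point of each KTS-minus library is Wnt4 site 3.

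Ranked by total signal, the 12 KTS-minus peaks that were highest by max signal in the 6 windows other than Wnt4 all stood lower in their lists, at 5.56% to 71.8% in place of 1.54% to 46.1%. Wnt4 site 3 also stood lower, at 1.24% and 0.239% in place of 0.378% and 0.0974% in replicates 1 and 2. These peaks were chosen by max signal. Chosen by total signal, the highest Pax2 peak of replicate 1, at chr19:44934995-44942534, stood at 0.821%, ahead of Wnt4 site 3. In replicate 2 the highest Pax2 peak by total signal stood at 2.36%, behind Wnt4 site 3.

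Across the 7 windows, 30 sites had a peak in M15 replicate 2 but not in replicate 1: 9 (30%) were met by both KTS-minus libraries, 11 by a single one and 10 (33.3%) by neither. Over all chromosomes, 35.9% of the sites of replicate 2 alone had a peak in both and 30.8% in neither, so these windows were near the background. Their 31 peaks had a max signal of 4 to 12. Counted by peaks that met each other directly, 8 of the 31 met both KTS-minus libraries, 13 met 1 and 10 met none. Besides the peaks already given for Bmp7, Pax2 and Sall1, the 10 without a KTS-minus peak were 5 in the Wnt4 window, at chr4:136707748-136709040, chr4:136745449-136746154, chr4:136821343-136822461, chr4:136823338-136824140 and chr4:136883008-136883659, with max signals of 5 to 8.

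KTS-minus sites without an M15 peak numbered 37 of the 234 sites (15.8%), against 13.5% over all merged regions. Pax2 held 22 of them, Wnt4 and Lhx1 5 each, Six2 3 and Bmp7 2, and Sall1 and Spry1 held none. In none of the 37 were both KTS-minus peaks among the 6440 highest of their lists, which held for only 44 of 61442 such regions over all chromosomes (0.0716%). A further 107 sites (45.7%) had a peak in KTS-minus replicate 1 alone and 56 (23.9%) in replicate 2 alone, against 45.7% and 29.4% of all merged regions.

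In all 7 windows together the peak density was 1.67 and 1.55 times that of the whole list in M15 replicates 1 and 2, and 1.46 and 1.35 times in KTS-minus replicates 1 and 2. The means were 1.61 ± 0.09 and 1.40 ± 0.08 (SD, n = 2 each). At equal list length the order of the means turned, with 1.67 for M15 and 1.88 for KTS-minus, and the KTS-minus replicates gave 1.26 and 2.51 from 3 and 6 peaks. Against the windows' own chromosomes the means were 1.13 in M15 and 1.08 in KTS-minus. The M15 value rested on Wnt4: without that window it was 0.47, the mean of 0 in replicate 1, which had no peak in the other 6 windows, and 0.94 in replicate 2.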

How the data were processed

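Peak lists of 4 WT1 CUT&RUN libraries were used, 1 per library. Per the submitters' processing notes, the authors used SEACR 1.3, Bowtie2 2.2.6, bedtools 2.23.0, SAMtools 1.3, Picard 2.5.0 and FastQC 0.11.8 with build mm9. Columns 4 and 5 of the deposited lists hold signal as whole numbers, read as total and highest coverage of a peak in SEACR's column order. The deposited lists are labelled stringent. Not given in the sources used here are the scaling between libraries, the control, the value of the threshold and any use of the yeast spike-in. Values were therefore compared only inside a list.

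Peaks of the 4 lists were merged where they shared at least 1 bp, over all chromosomes, and merged regions overlapping a window are called sites. Density is peaks per 100 kb, with a chromosome's length taken as its last peak end. Tiles of a window's length, placed end to end from each chromosome's start, gave the background shares. The window-overlap and merging steps were checked on simulated lists. Sites named are those with a peak in both M15 libraries, those with an M15 but no KTS-minus peak, those without an M15 peak whose KTS-minus peaks were both in the equal-length lists (none), and the highest peak of each window and library. Other sites are given by counts and ranges, apart from peaks singled out after their values were seen: the M15 replicate 2 peaks at Pax2, Six2 and Lhx1 that met KTS-minus peaks, the broadest Pax2 site and a peak at Wnt4 in KTS-minus replicate 2. The planned list of other kidney genes was not run, since it needs mm9 gene positions. A planned search of the promoter sequences is not reported here. Alternatives were the overlap rule, list length, window size, base of the density and left-out libraries. The genes, windows and lists were chosen with earlier results of these data known. Computation used Python 3.11.15, numpy 2.4.6, pandas 2.3.3, scipy 1.17.1 and matplotlib 3.10.9.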

Additional observations from a re-analysis of the deposited data

How the results depend on the processing

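Peaks rather than reads were available, so depth could not be weighed. No paired analysis was possible because every result is a count, a share or a ratio with no test between the lines, to which a replicate block could be added. The 4 sites of both M15 libraries stayed at 4 with the 50% of peaks of highest total signal, with lists of equal length, with a 50% reciprocal overlap and with peaks merged within a line. They numbered 3 in the middle 50% of each window and 0 without the Wnt4 window. With windows widened by 50 kb on each side they numbered 7 (2 of the added sites at Wnt4 and 1 at Pax2). With the short stretches of highest signal in place of whole peaks they numbered 0. With 1 M15 replicate left out, the sites of the other replicate alone were counted, 34 without replicate 1 and 4 without replicate 2. The share with both KTS-minus libraries was 25% at equal list length, 50% with a 50% reciprocal overlap and 100% in the middle 50% of the windows. With a library left out, the remaining replicate alone stood for its line, and the share was 35.3% to 75%. It could not be computed for the highest stretches or without the Wnt4 window, which leave no M15 site.

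The 37 sites of both KTS-minus libraries alone became 19 with the 50% of highest total signal, 0 at equal length, 3 for the highest stretches, 17 in the middle 50%, 66 in widened windows, 12 with reciprocal overlap and 15 without the Pax2 window. With a library left out, the remaining replicate alone stood for its line, and such sites numbered 37 to 144. The M15 density ratio was 2.38 with the 50% of highest total signal, 2.14 in the middle 50%, 1.83 by bases covered, 1.13 against the same chromosomes and 0.47 without the Wnt4 window, which turned it below 1. With a library left out it was 1.55 to 1.67. The KTS-minus ratio was 1.56, 1.88 at equal length, 1.3 in the middle 50%, 1.08 against the same chromosomes and 1.11 without the Pax2 window, and 1.35 to 1.46 with a library left out. The strongest peak of a window lay in the top 10% of its list in 12 of 21 window and library pairs that held a peak, and in 6 by total signal. As the highest of all peaks in its window, it tends to rank higher where the window holds more peaks. The share expected from the number of peaks was not computed, so these counts show no enrichment of strong peaks. At equal list length the density ratio of the Wnt4 window rose from 6.05 to 8.20 in M15 and from 1.63 to 5.13 in KTS-minus. Leaving out the Wnt4 or Pax2 window and the equal-length ratio of the Wnt4 window were chosen after seeing the data. The cause of these shifts was not tested, beyond the fewer peaks or windows that a setting leaves.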
